A study of Mus musculus with 6 samples.

Results

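The Rab GTPases are the largest branch of the small GTPases that direct membrane traffic, and they are described here by their transcripts in a mouse B cell line after siRNA against Spt6. Members were taken as the genes whose symbol is Rab followed by a number and at most a letter and a digit. That gave 55 genes with a single probe each, out of 16390 named genes on an array of 23473 probes, and 54 of them could be tested. The symbols given with the probes matched for 52 genes, and Rab7b, Rab43 and Rab44 were added because their probes carry older clone names of these genes. Rab7 and Rab18, the usual markers of late endosomes and of the endoplasmic reticulum with its lipid droplets, were not analysed here.

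The 3 siSpt6 samples were CH12F3-2A cells, which come from a mouse B cell lymphoma and can switch from IgM to IgA, electroporated with siRNA against Spt6, for which the labels name Stealth-type oligonucleotides from Invitrogen. The 3 siControl samples were the same line electroporated with control siRNA, whose chemistry the labels do not name. All 6 samples received CD40 ligand, interleukin 4 and TGF-beta (CIT) 24 h after electroporation and were taken 24 h later. The labels give the 2-mercaptoethanol of the medium in millimolar for siSpt6 and in micromolar for siControl, with the same figure, and whether the media differed is not known. The study asked how the histone chaperone Spt6 bears on where AID, the enzyme of class switching, acts. Whether replicates were grown separately is unstated in the labels, so the p-values cover sample-to-sample spread alone, and that spread may be technical.

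Each RNA was read on its own 1-colour array, and precision is limited by having 3 arrays a group. Which arrays were processed together is unstated, and a batch was not tested. Between 21526 and 22372 probes had a value on an array. Supt6, the gene of Spt6, read 25.1, 21.8 and 28.1 on the siSpt6 arrays, against 33.1, 32.1 and 32.1 on the siControl arrays (intensity in arbitrary units). These groups did not overlap, but the log2 difference of -0.38 (SE 0.13) missed the threshold (limma adjusted p = 0.0973), which it passed after cyclic loess (log2 difference -0.42, limma adjusted p = 0.0491), so "siSpt6" stands here for the label. Of 10 B cell markers 9 were measured, and their summed intensity was 35769 to 39204 in siSpt6 and 34469 to 39342 in siControl. Cd74 made up the largest share of that sum, and within the list Cd79b rose 1.46-fold and Cd22 fell to 0.649 times the siControl level (limma adjusted p = 0.0391 and 0.0281). The summed intensity of 8 measured macrophage and granulocyte markers was 305 to 387 in siSpt6 and 276 to 315 in siControl, and that of 4 erythroid markers 91.8 to 102 in siSpt6 and 86.2 to 103 in siControl. The 8 T cell markers summed to 877 to 1013 in siSpt6 and 1357 to 1519 in siControl, nearly all of it from the costimulatory receptor gene Cd28. Cd28 fell to 0.639 times the siControl level (limma adjusted p = 0.0130). The defining T cell genes Cd3d, Cd3e and Cd3g averaged 20.7, 2.75 and 1.82 in siSpt6 and 20.8, 2.24 and 2.03 in siControl, with Cd3e blank on 1 siSpt6 array. The part of these markers in the Rab results was not tested.

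A Rab protein is a switch. Bound to GTP it sits on 1 kind of membrane and recruits the effectors that move, tether and fuse vesicles there, and bound to GDP it is carried through the cytosol by a GDP dissociation inhibitor. Exchange factors load it with GTP, GTPase-activating proteins switch it off, and a geranylgeranyl transferase adds the lipid tails that hold it in the membrane. In B cells these routes serve the uptake of antigen and its loading on MHC class II in late endosomes, the recycling of surface receptors and the secretion of antibody. Members were divided into endosomal/lysosomal Rabs (early, recycling and late endosomes, lysosomes), secretory Rabs (endoplasmic reticulum, Golgi and exocytic vesicles) and others.

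Of the 54 tested Rab genes, 8 were higher and 2 lower in siSpt6 (18.5%), by limma with Benjamini-Hochberg adjustment over 21584 tested probes and a threshold of 0.05. Over all 15224 genes tested, 17% passed the same test, 7.4% higher and 9.65% lower (16.3% of all probes, 7.43% higher and 8.9% lower), so the share of Rab genes called lay near that of all genes. In bulk RNA, a change in every cell cannot be told apart from a change in the share of cells that express a gene. The rises were Rab13, Rab34, Rab37, Rab33a, Rab2b, Rab3b, Rab19 and Rab22a, and the falls were Rab28 and Rab9. The median log2 difference was 0.12 over the Rab genes and -0.0019 over all genes. The other 44 Rab genes had log2 differences between -0.46 and 0.60. At an unadjusted p under 0.05 there were 11 Rab genes higher and 5 lower (29.6%), beside 31.4% of all genes (13.9% higher and 17.4% lower). The groups did not overlap for 13 Rab genes higher and 10 lower, beside 38.6% of all genes with 6 values (16.9% higher and 21.6% lower). With any single array left out, 4 to 6 Rab genes rose and 0 to 2 fell. Over all probes, the same repeats gave 1047 to 1124 higher and 1052 to 1421 lower, against 1603 and 1922 with all 6 arrays.

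**Figure D1:**
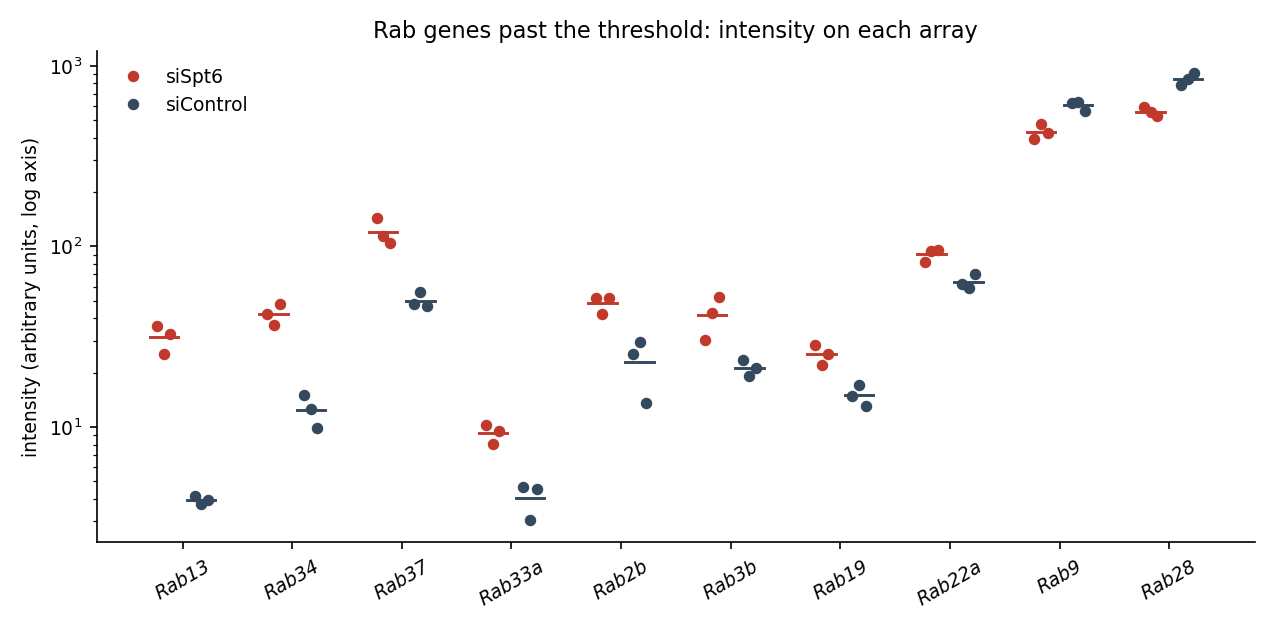
Intensity (arbitrary units, log axis) of the 10 Rab genes past the threshold on each of the 3 siSpt6 (red) and 3 siControl (dark) arrays; lines are group means. Rab13 had the widest gap, with 25.3 to 36.3 in siSpt6 and 3.74 to 4.14 in siControl, while Rab9 and Rab28 were the bright genes lower in siSpt6.

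The sequences before the transcription starts of Rab genes were read from RefSeq (GRCm38.p6), where 44 of the 54 tested genes had an entry. The window ran from 250 bases before to 50 after the most upstream annotated start. It was CpG-rich in Rab genes, with a median of 20 CpG per window, against 7 over all 27025 genes with a window. Those 27025 genes were not limited to genes tested on the arrays, whereas the Rab genes were, so the 2 sets are unlike. The 7 matched genes that rose had a median of 13, the 2 that fell 12.5 and the 35 not called 23. The following are the 150 bases before the start of the 3 matched genes with the largest rises and of the 2 that fell, shown because they span this range; capitals mark CpG. They lie at chr3:90213565-90213714 (plus strand, Rab13), chr11:78188277-78188426 (plus strand, Rab34), chrX:48519135-48519284 (plus strand, Rab33a), chrX:166479868-166480017 (minus strand, Rab9) and chr5:41708180-41708329 (minus strand, Rab28).
Rab13: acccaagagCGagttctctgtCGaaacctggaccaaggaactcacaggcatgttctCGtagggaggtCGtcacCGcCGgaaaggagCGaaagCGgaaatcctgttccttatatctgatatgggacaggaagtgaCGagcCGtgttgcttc
Rab34: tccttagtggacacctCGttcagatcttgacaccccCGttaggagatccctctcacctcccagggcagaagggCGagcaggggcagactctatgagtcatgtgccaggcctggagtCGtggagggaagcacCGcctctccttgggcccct
Rab33a: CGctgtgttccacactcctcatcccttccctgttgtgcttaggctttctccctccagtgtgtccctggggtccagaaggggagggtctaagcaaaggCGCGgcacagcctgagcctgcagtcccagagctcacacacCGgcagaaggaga
Rab9: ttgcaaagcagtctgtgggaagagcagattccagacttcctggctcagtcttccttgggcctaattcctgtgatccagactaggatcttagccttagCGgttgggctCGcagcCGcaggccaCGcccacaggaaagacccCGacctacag
Rab28: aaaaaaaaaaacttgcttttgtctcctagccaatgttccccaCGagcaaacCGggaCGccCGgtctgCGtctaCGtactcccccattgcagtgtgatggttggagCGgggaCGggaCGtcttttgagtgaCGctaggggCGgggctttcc
In these stretches CpG occurred 10 times in Rab13, 5 times in Rab34, 4 times in Rab33a, 5 times in Rab9 and 11 times in Rab28.

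The exocytic Rabs held 3 rises among 11 genes (27.3% called, against 17% of all genes). Rab13 delivers recycling cargo to the surface and is best known from epithelial junctions. It read 36.3, 25.3 and 32.8 on the siSpt6 arrays, against 4.14, 3.74 and 3.96 on the siControl arrays. All 3 siSpt6 values stood several-fold above all siControl values. The rise was 7.88-fold (log2 difference 2.98, SE 0.16, limma adjusted p = 0.000392). Rab13 was very dim in siControl and the background of these arrays is not known, and with a pseudocount of 2.66 the log2 difference was 2.36.

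Rab37, a Rab of secretory granules described in mast cells, read 144, 114 and 104 in siSpt6, against 47.9, 55.8 and 46.6 in siControl. The lowest siSpt6 value was well above the highest siControl value, and the rise was 2.39-fold (log2 difference 1.26, SE 0.16, limma adjusted p = 0.00386). Rab3b acts in regulated exocytosis and is best known from neurons and endocrine cells. It read 30.3, 43.0 and 52.2 in siSpt6, against 23.6, 19.2 and 21.2 in siControl. The groups did not overlap, but the siSpt6 values were uneven (41.8 ± 11.0 in siSpt6 and 21.3 ± 2.22 in siControl, SD, n = 3 each). The 1.92-fold rise (limma adjusted p = 0.0277) missed the threshold when any single array but siSpt6 replicate 1 was left out (largest limma adjusted p = 0.0847).

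The remaining exocytic Rabs did not pass the test. Rab27a, which docks secretory granules and lysosome-related vesicles at the surface, came nearest. It read 76.5, 90.6 and 82.9 in siSpt6, against 108, 129 and 107 in siControl. All siSpt6 values lay below the siControl values, with a log2 difference of -0.46 (SE 0.13, limma adjusted p = 0.0633). Rab8a, which carries cargo from the Golgi and recycling endosomes to the surface, read 452, 507 and 474 in siSpt6, against 554, 565 and 591 in siControl, without overlap and without passing the test (limma adjusted p = 0.176). Rab3a, Rab3c, Rab3d, Rab8b, Rab10 and Rab27b had overlapping groups and log2 differences between -0.41 and 0.29.

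Among the 11 Rabs of the endoplasmic reticulum and Golgi, 3 rose (27.3% called, against 17% of all genes). Rab33a is a close relative of the Golgi Rab Rab33b and is known from brain and lymphoid cells. It read 10.3, 8.06 and 9.53 in siSpt6, against 4.63, 3.05 and 4.52 in siControl. The groups were well apart at a dim level, and the rise was 2.31-fold (log2 difference 1.21, SE 0.20, limma adjusted p = 0.00870), or 0.83 on the log2 scale with the pseudocount.

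Rab2b works with Rab2a in traffic between the endoplasmic reticulum and the Golgi. It read 51.8, 42.4 and 51.7 in siSpt6, against 25.4, 29.4 and 13.6 in siControl. The siControl replicate 3 value was low within its group. The rise was 2.24-fold (log2 difference 1.16, SE 0.29, limma adjusted p = 0.0376), and without siControl replicate 3 the log2 difference was 0.83 and passed the threshold. Without siControl replicate 1 or any 1 of the siSpt6 arrays the call was lost (limma adjusted p up to 0.0997).

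Rab19, a Golgi Rab, read 28.4, 22.1 and 25.2 in siSpt6, against 14.9, 17.1 and 13.04 in siControl. The groups did not overlap, and the rise was 1.68-fold (log2 difference 0.75, SE 0.16, limma adjusted p = 0.0207). The call was lost without siControl replicate 1 or 3 or without siSpt6 replicate 1 or 3 (limma adjusted p up to 0.0626). Rab30, another Golgi Rab, went the other way: it read 784, 855 and 889 in siSpt6, against 990.3, 1079 and 1188 in siControl. The groups did not overlap, but the difference missed the threshold (log2 difference -0.36, limma adjusted p = 0.0981). Rab6b, the neuronal form of a Golgi Rab, read 6.49, 6.95 and 11.2 in siSpt6, against 5.06, 5.79 and 4.96 in siControl. It did not overlap and did not pass either (log2 difference 0.60, limma adjusted p = 0.119).

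The bright probe listed as Rab1 read 2033, 2170.1 and 2843 in siSpt6, against 1988, 1807 and 1782 in siControl. RefSeq gives Rab1 as an older symbol of both Rab1a, the Rab of early secretory transport, and the ribonuclease gene Rnase4, so its gene is uncertain. It did not pass the test as deposited (log2 difference 0.32, limma adjusted p = 0.222), but after quantile normalization it did (log2 difference 0.61, limma adjusted p = 0.0307). Rab1b, Rab2a, Rab6a, Rab33b and Rab43 did not pass, with log2 differences between -0.16 and 0.33. Rab2a had groups without overlap, at 584, 577 and 572 in siSpt6, against 680.4, 637 and 621 in siControl.

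The endosomal and lysosomal Rabs held 2 rises and 1 fall among 26 tested genes (11.5% called, against 17% of all genes). Rab34, which places lysosomes near the Golgi and serves macropinosomes and cilia, read 42.4, 36.5 and 48.0 in siSpt6, against 14.97, 12.6 and 9.91 in siControl. The lowest siSpt6 value was well above the highest siControl value, and the rise was 3.42-fold (log2 difference 1.77, SE 0.19, limma adjusted p = 0.00217). Rab9 returns mannose 6-phosphate receptors from late endosomes to the trans-Golgi. It read 393, 475 and 428 in siSpt6, against 621, 632 and 563 in siControl. Every siSpt6 value was below every siControl value, and the level was 0.712 times that of siControl (log2 difference -0.49, SE 0.13, limma adjusted p = 0.0416). Leaving out any single array ended the call, as did quantile normalization (log2 difference -0.31, limma adjusted p = 0.152).

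Rab22a, a relative of Rab5 on early and recycling endosomes, read 81.6, 94.1 and 95.01 in siSpt6, against 61.6, 58.6 and 70.1 in siControl. The groups were apart and the rise was 1.42-fold (log2 difference 0.51, SE 0.13, limma adjusted p = 0.0409), and leaving out any single array ended the call (largest limma adjusted p = 0.117). The 3 Rab5 genes, which drive fusion of early endosomes, did not pass. Rab5b read 23.6, 31.1 and 26.2 in siSpt6, against 22.03, 18.5 and 20.7 in siControl (log2 difference 0.40, limma adjusted p = 0.122), and Rab5a and Rab5c had overlapping groups. Rab17, Rab20, Rab21 and Rab31 had log2 differences between -0.38 and 0.49, and of these Rab21 had groups without overlap, at 362, 422 and 482 in siSpt6, against 494 (replicate 1), 667 and 495 in siControl.

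The recycling endosome Rabs had 0 calls among 8 tested genes by limma (against 17% of all genes), and 1 at an unadjusted p under 0.05 (12.5%, against 31.4%). That was Rab11a, the main Rab of slow recycling, which read 2003, 1955 and 2027 in siSpt6, against 1562, 1756 and 1549.7 in siControl. The siSpt6 values were tight and all higher, with a log2 difference of 0.30 (SE 0.11, limma adjusted p = 0.125). After quantile normalization and after cyclic loess Rab11a rose past the threshold (log2 differences 0.58 and 0.55, limma adjusted p = 0.0145 and 0.0162). Rab4b, of the fast recycling route, read 406, 412 and 512 in siSpt6, against 559, 516 and 566 in siControl, and Rab14 read 945, 863 and 833 in siSpt6, against 818, 778 and 679.9 in siControl. Neither passed, although their groups did not overlap. Rab4a, Rab11b, Rab12, Rab25 and Rab35 had overlapping groups, with log2 differences between -0.15 and 0.44. Rab15, also of this route, had a value on only 1 siControl array and was not tested.

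Of the other late endosomal and lysosomal Rabs, Rab29 read 171, 138 and 125 in siSpt6, against 189, 192 and 178 in siControl (log2 difference -0.38, limma adjusted p = 0.138), and Rab39 also had groups without overlap (log2 difference -0.21). Rab7b, Rab9b, Rab24, Rab32, Rab36 and Rab38 had overlapping groups, with log2 differences between -0.09 and 0.49. The autophagosome Rab Rab24 was bright and level, at 855 ± 65.3 in siSpt6 and 819 ± 85.8 in siControl (SD, n = 3 each).

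Of the 6 Rabs in neither class, Rab28 fell (16.7% called, against 17% of all genes). Rab28 is known from cilia and photoreceptors. It read 591, 555 and 530.5 in siSpt6, against 779, 841 and 912 in siControl. The groups were clearly apart, and the level was 0.663 times that of siControl (log2 difference -0.59, SE 0.12, limma adjusted p = 0.0181). The call was lost without siControl replicate 2 or 3 or siSpt6 replicate 2 or 3 (largest limma adjusted p = 0.0577), and also after quantile normalization (log2 difference -0.40, limma adjusted p = 0.0897) and cyclic loess (log2 difference -0.42, limma adjusted p = 0.0721). Rab23, Rab39b, Rab40b, Rab40c and Rab44 had overlapping groups, with log2 differences between -0.29 and 0.31. Rab40b was blank on 1 siSpt6 array and its difference rests on 5 values.

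**Figure D2:**
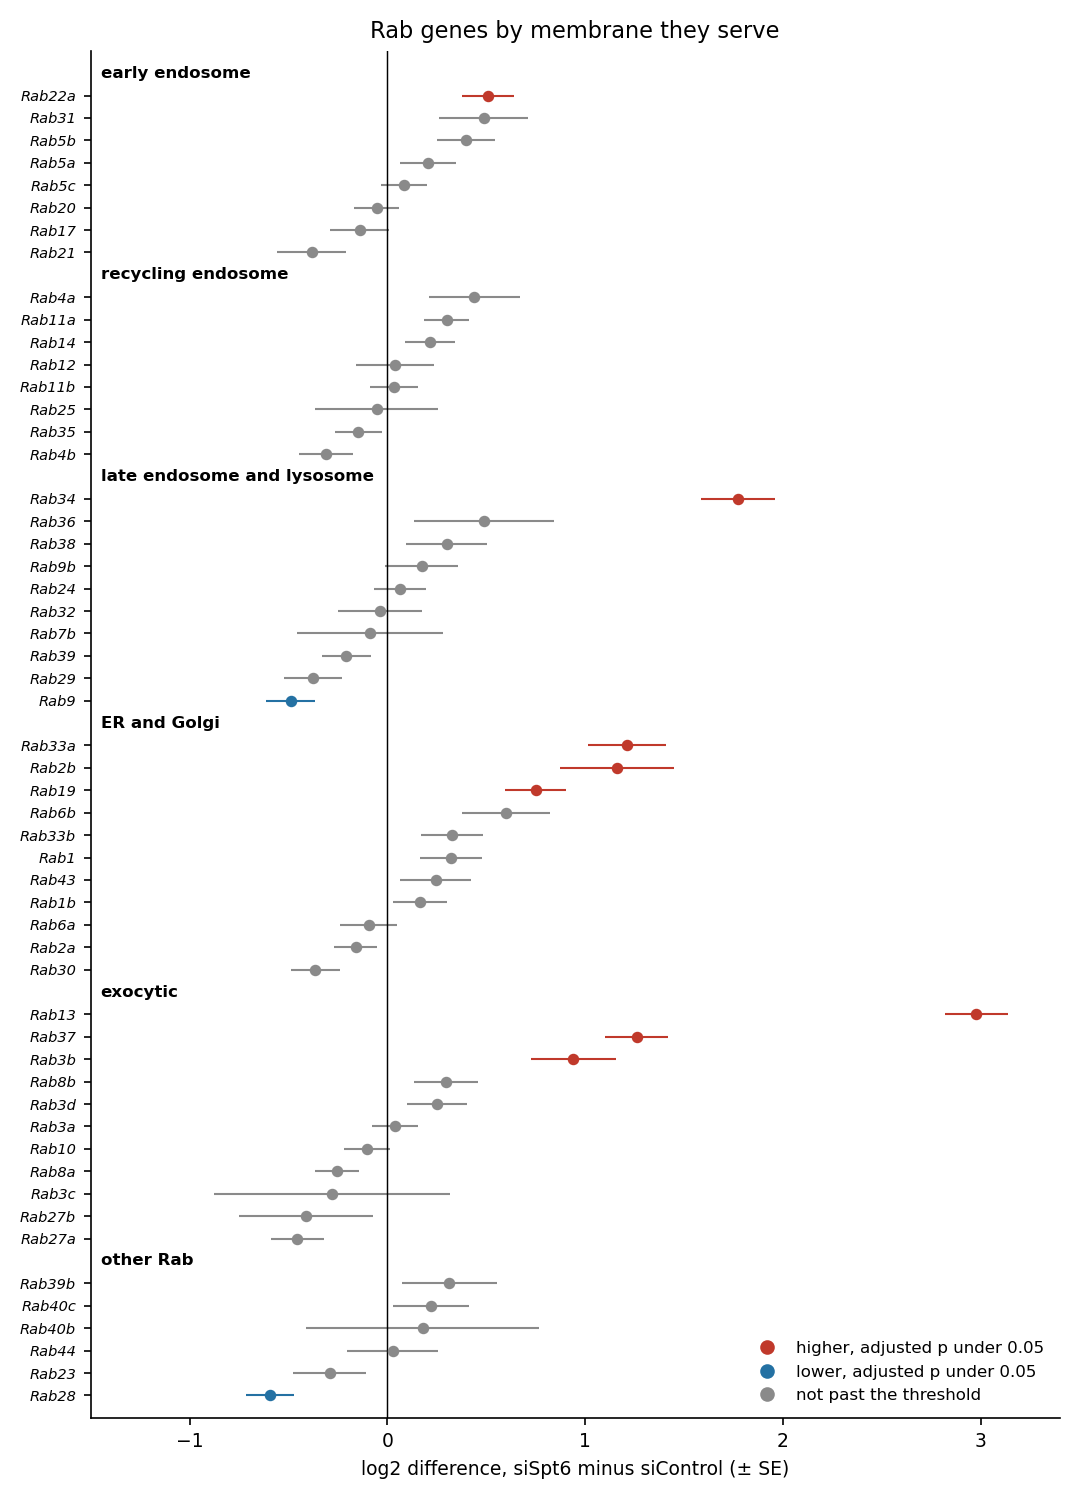
Log2 difference between siSpt6 and siControl (± SE) of the 54 tested Rab genes, ordered by the membrane they serve; red and blue mark genes higher and lower at an adjusted p under 0.05. The rises lie in 4 of the 6 groups, and none of the 8 recycling endosome genes passed the test, against 17% of all genes.

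Set side by side, 2 of 26 endosomal/lysosomal Rabs rose and 1 fell (11.5% called), against 6 rises and 0 falls among 22 secretory Rabs (27.3% called), with 17% of all genes called. By unadjusted p under 0.05 the counts were 4 higher and 2 lower among endosomal/lysosomal Rabs (15.4% and 7.69%). Among secretory Rabs 7 were higher and 2 lower (31.8% and 9.09%), beside 13.9% higher and 17.4% lower of all genes. The median log2 difference was 0.05 for endosomal/lysosomal Rabs and 0.25 for secretory Rabs, a gap of -0.20. With only a hand-set core of each class (10 endosomal/lysosomal, 14 secretory), the medians were 0.14 and 0.10, and the gap turned its sign to 0.04. This core left out the called genes Rab13, Rab37, Rab33a and Rab19 of the secretory class and Rab34 of the endosomal/lysosomal class. Members of a class are not replicates, so the gap has no test. Per array, the median log2 intensity of the endosomal/lysosomal Rabs was 7.18, 6.81 and 7.06 in siSpt6, against 7.11, 7.16 and 7.25 in siControl. That of the secretory Rabs was 5.74, 5.62 and 5.75 in siSpt6, against 5.07, 5.79 and 5.37 in siControl. Both classes overlapped between the groups by this measure.

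The gap between the classes moved with the brightness of their probes. Members dimmer than the median tested probe (mean log2 intensity under 4.98) had a median log2 difference of 0.35 over 10 endosomal/lysosomal Rabs and 0.60 over 9 secretory Rabs. Among brighter members the medians were -0.0025 over 16 endosomal/lysosomal Rabs and -0.094 over 13 secretory Rabs. Of the 8 rises, 5 were among the 22 dimmer Rab genes, of which 0 fell (22.7% called). Of all 7105 dimmer genes, 9.53% were called, 446 higher and 231 lower. By 4 equal bins of all tested probes, 1 rise was in the dimmest bin and 4 in the next, and both falls were in the brightest. All tested probes leaned the same way: 4.56% were called higher and 1.83% lower in the dimmest bin, and 8.45% and 3.71% in the next. In the brightest bin 7.52% were higher and 20.7% lower. The median log2 difference was 0.09 in the dimmest bin and -0.15 in the brightest. After quantile normalization and cyclic loess, which align the arrays across brightness, the gap between the class medians was -0.10 and -0.09, with 10 Rab genes higher and 0 lower under each. The added rises were Rab11a and the probe listed as Rab1, whose gene is uncertain. All probes shifted as well, from 1603 higher and 1922 lower as deposited to 1853 and 1379 after quantile normalization. After cyclic loess 1808 were higher and 1567 lower. At an unadjusted p under 0.05 as deposited, 0 of the 22 dimmer Rab genes were lower and 7 higher (31.8%), beside 12.7% higher and 8.06% lower among all dimmer genes.

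**Figure D3:**
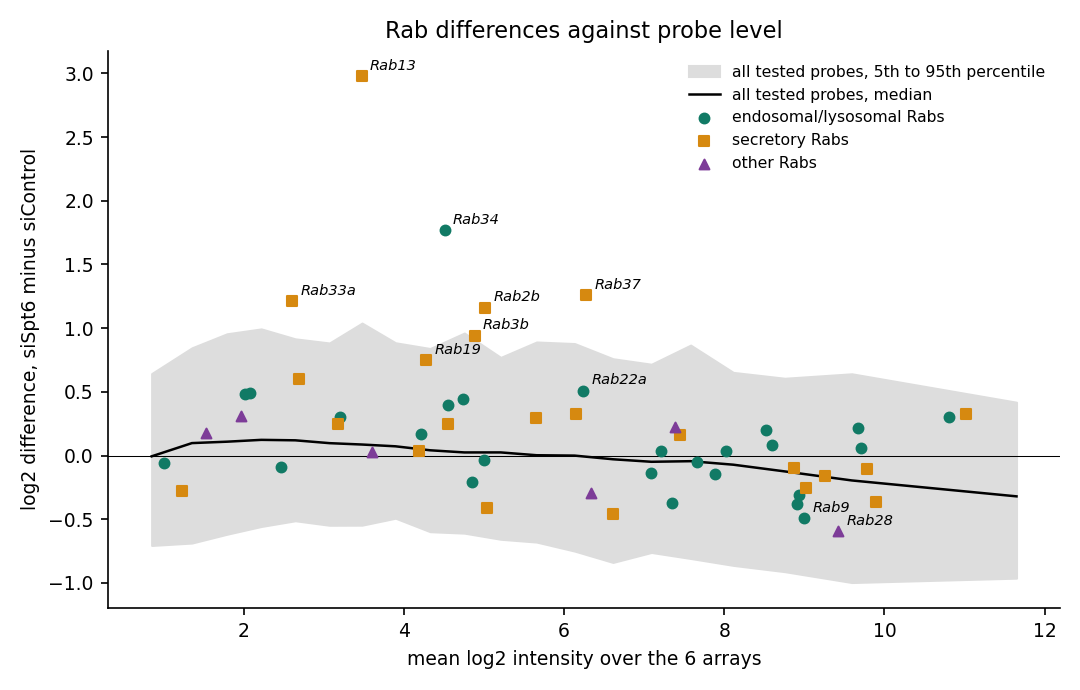
Log2 difference between siSpt6 and siControl of each Rab gene against its mean log2 intensity over the 6 arrays; the line and band give the median and the 5th to 95th percentile of all tested probes in 20 bins of equal size. Rab13, Rab34, Rab33a, Rab37 and Rab2b lie above the band and Rab3b at its upper edge, and both falls lie inside it at the bright end.

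Short motifs were searched on both strands of the promoter windows described above. Here "all genes" are the 27025 genes with a window, not limited to genes tested on the arrays. The GC box GGGCGG was in 30 of 44 Rab windows (68.2%, against 35.9% of all genes), in 3 of the 7 matched rises and in 1 of the 2 falls. CCAAT was in 21 Rab windows (47.7%, against 38.0% of all genes) and TATAAA in 2 (4.55%, against 14.2%), 1 of them the risen gene Rab3b. The 6-letter E-box CACGTG was in 5 Rab windows (11.4%, against 7.24% of all genes). Of the 22 endosomal/lysosomal windows 4 held it, and of the 17 secretory windows 0. The same motif preceded by GT and followed by AC, known as the lysosomal gene element read by TFEB, was in 3 Rab windows (6.82%, against 0.355% of all genes), those of Rab5a, Rab21 and Rab24. A match describes the letters and is no evidence of binding. The 30 bases around the motif in these 3 genes are shown because these are the Rab windows with the longer motif, with CACGTG in capitals. They lie at chr17:53479127-53479156 (plus strand, Rab5a), chr10:115315604-115315633 (minus strand, Rab21) and chr13:55321961-55321990 (minus strand, Rab24).
Rab5a: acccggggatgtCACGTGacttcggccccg
Rab21: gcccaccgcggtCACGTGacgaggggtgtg
Rab24: cggcgcccgcgtCACGTGaccgggcgtccc
None of these 3 genes, nor Rab20 and Rab23, whose windows hold the shorter motif, passed the expression test; their log2 differences were 0.20 (Rab5a), -0.38 (Rab21), 0.06 (Rab24), -0.05 (Rab20) and -0.29 (Rab23).

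Related Rab genes were then compared within each array, as the log2 ratio of their intensities, which does not depend on an array's overall scale. Of 17 pairs, 7 had ratios that did not overlap between the groups, beside 38.6% of all single genes with 6 values. The share over all gene pairs was not computed, and some genes are in more than 1 pair. The exact permutation test used here cannot pass the threshold, since 3 arrays against 3 allow no two-sided p below 0.1 (adjusted p = 0.243 over the 17 pairs for each of the 7). The widest shift was in Rab2a over Rab2b, whose log2 ratio was 3.58 ± 0.16 in siSpt6 and 4.90 ± 0.56 in siControl (SD, n = 3 each, exact permutation p = 0.1). Rab34 over its relative Rab36 shifted by 1.28 (SE 0.36) and Rab33a over Rab33b by 0.88 (SE 0.22), with the called member rising in each.

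Ratios without overlap were also seen between genes that did not pass alone, though no pair passed the threshold. The log2 ratio of Rab4a over Rab4b was -3.83 ± 0.28 in siSpt6 and -4.58 ± 0.22 in siControl, a shift of 0.75. Rab8a over Rab8b shifted by -0.55 (SE 0.19), Rab6a over Rab6b by -0.69 (SE 0.28) and Rab11a over Rab11b by 0.27 (SE 0.13). The 95% intervals of Rab6a over Rab6b (-1.47 to 0.08) and Rab11a over Rab11b (-0.09 to 0.62) included 0. In Rab2, Rab4, Rab6, Rab8 and Rab33 the dimmer probe of the pair gained on the brighter one, the direction in which all probes leaned. The brighter probe gained in Rab34 over Rab36 and in Rab11a over Rab11b. The part of brightness in these ratios was not tested. Rab9 over Rab9b shifted by -0.66 (SE 0.26), with overlapping ratios. Rab27a over Rab27b (-0.05, SE 0.37) and Rab22a over Rab31 (0.02, SE 0.32) showed the smallest shifts, with wide errors.

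**Figure D4:**
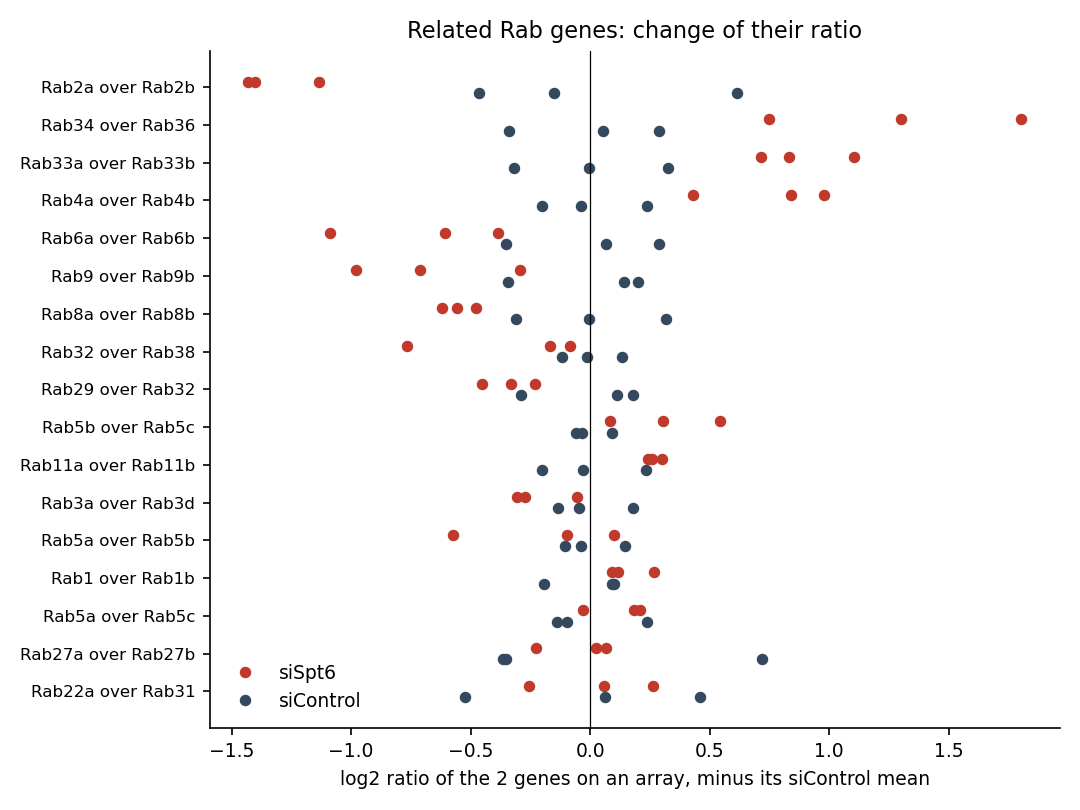
Log2 ratio of related Rab genes on each siSpt6 (red) and siControl (dark) array, with the siControl mean of the pair set to 0, ordered by the size of the shift. The ratios of 7 of the 17 pairs do not overlap between the groups, beside 38.6% of all single genes with 6 values. Rab2a over Rab2b shows the widest shift.

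The genes that load, switch and read Rabs were taken from lists of the Rab cycle. Rabggtb, the catalytic subunit of the transferase that puts geranylgeranyl tails on Rabs, read 988, 939 and 1127 in siSpt6, against 2017, 2081 and 1775 in siControl. All siSpt6 values were far below the siControl values, at 0.5195 times the siControl level (log2 difference -0.94, SE 0.13, limma adjusted p = 0.00514). The partner subunit gene Rabggta did not pass, with a log2 difference of 0.40 (limma adjusted p = 0.0758). Gdi2, a GDP dissociation inhibitor, read 609.98, 636 and 486 in siSpt6, against 406, 393 and 385 in siControl (1.45-fold, limma adjusted p = 0.0417), and leaving out any single array but siSpt6 replicate 3 ended the call (largest limma adjusted p = 0.115). Of the 6 genes measured on this list, 1 rose and 1 fell (33.3% called, against 17% of all genes).

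Among 42 exchange factor genes, 6 rose and 3 fell (21.4% called, against 17% of all genes), with a median log2 difference of 0.20. They include subunits of TRAPP, the complex that activates the early secretory Rabs. Trappc6a read 1424, 1650.0 and 1756 in siSpt6, against 701, 907 and 754 in siControl, a 2.05-fold rise (limma adjusted p = 0.00595). Trappc5, of the same complex, read 135, 191 and 220.3 in siSpt6, against 398, 383 and 373 in siControl, at 0.464 times the siControl level (limma adjusted p = 0.0105). The groups of both genes were far apart, in opposite directions. Trappc9, a further TRAPP subunit, rose 1.51-fold (limma adjusted p = 0.0358), and none of the other TRAPP subunits measured passed. Dennd5b, of the DENN domain family, rose 1.92-fold (limma adjusted p = 0.00533), and Ric1, a subunit of the exchange factor of Rab6, rose 1.59-fold (limma adjusted p = 0.0167). Dennd2d and Dennd4a fell (log2 differences -0.64 and -0.62, limma adjusted p = 0.0186 and 0.0268). Ric1 lost its call without some single arrays (limma adjusted p up to 0.0581), as did Dennd2d and Dennd4a (up to 0.0640 and 0.0833).

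Among 38 genes of GTPase-activating proteins, 7 rose and 2 fell (23.7% called, against 17% of all genes), with a median log2 difference of 0.13. Tbc1d4 acts on Rab8, Rab10 and Rab14 and is known for holding back glucose transporter vesicles until insulin arrives. It read 105, 87.6 and 103 in siSpt6, against 388, 328 and 386 in siControl. That was the widest fall of the list, at 0.268 times the siControl level (log2 difference -1.90, SE 0.14, limma adjusted p = 0.000656). Its target genes Rab8a, Rab10 and Rab14, described above, did not pass the test. Tbc1d31 fell too (log2 difference -1.06, limma adjusted p = 0.00424). Tbc1d9 rose 2.19-fold (limma adjusted p = 0.00301), and Tbc1d23 and Tbc1d7 rose 1.49-fold and 1.59-fold, calls lost without most single arrays (limma adjusted p up to 0.0748 and 0.0682). Tbc1d7 is also a subunit of the TSC complex, which restrains mTORC1.

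Effectors, which read the active Rab, held 4 rises and 1 fall among 58 genes (8.62% called, against 17% of all genes), with a median log2 difference of 0.13. Appl2, a Rab5 effector of early endosomes, read 64.6, 56.8 and 80.3 in siSpt6, against 30.9, 31.6 and 30.1 in siControl, a 2.16-fold rise (limma adjusted p = 0.00506). Plin3, described as a Rab9 effector and a lipid droplet coat protein, read 316, 356 and 369.9 in siSpt6, against 124, 195 and 177 in siControl, a 2.14-fold rise (limma adjusted p = 0.0111). The siSpt6 values of both were above all their siControl values. Osbpl1a and Plekhm1, which work with Rab7 on late endosomes, rose 1.36-fold and 2.08-fold (limma adjusted p = 0.0364 and 0.0460). Osbpl1a lost its call when any single array was left out and Plekhm1 in 5 of 6 such repeats (largest limma adjusted p = 0.104 and 0.117). Sytl3, a Rab27 effector, fell (log2 difference -0.77, limma adjusted p = 0.0316), a call lost without 5 of the 6 arrays taken singly (limma adjusted p up to 0.0931).

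The list of HOPS and CORVET, the tethers of late and early endosomes, also held Vps33b and Vipas39, which are not subunits of either. Of its 9 measured genes, 2 rose and 0 fell by limma (22.2% called, against 17% of all genes). At an unadjusted p under 0.05, 1 of the 9 was lower, beside 17.4% of all genes. Vps41, the HOPS subunit, read 371, 409.8 and 439.7 in siSpt6, against 231, 229.9 and 262 in siControl, a 1.69-fold rise (limma adjusted p = 0.00933). Vps8, the CORVET subunit, rose 1.64-fold (limma adjusted p = 0.0493), a call lost without 5 of the 6 arrays taken singly (limma adjusted p up to 0.129). Of 8 genes of the exocyst, which tethers secretory vesicles to the plasma membrane, 1 fell and 0 rose by limma (12.5% called, against 17% of all genes). The fall was Exoc7 (log2 difference -0.47, limma adjusted p = 0.0352), and leaving out any single array ended the call (largest limma adjusted p = 0.107). At an unadjusted p under 0.05, 1 of the 8 exocyst genes was higher, beside 13.9% of all genes. The Arf, Arl and Sar genes, the other GTPases of membrane traffic, had 0 rises and 1 fall (Arl11) among 18 measured (5.56% called, against 17% of all genes). At an unadjusted p under 0.05, 0 of these 18 genes were higher and 3 lower, beside 13.9% higher and 17.4% lower of all genes. Their median log2 difference was -0.11 as deposited, but 0.02 and 0.01 after quantile normalization and cyclic loess.

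**Figure D5:**
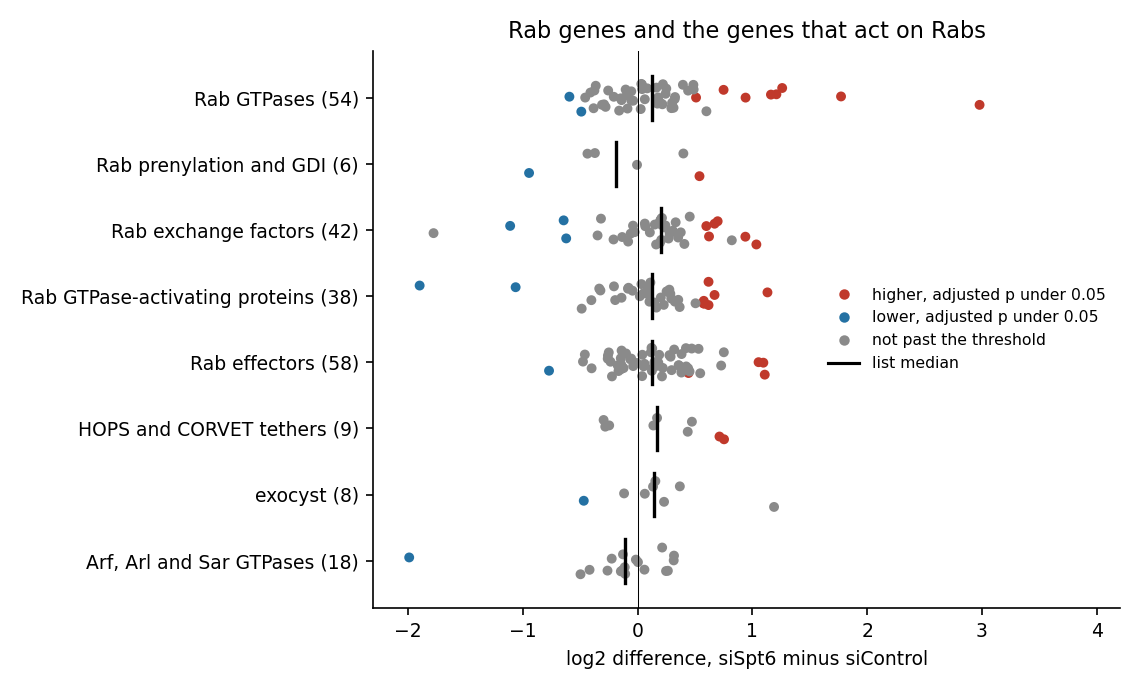
Log2 difference between siSpt6 and siControl of Rab genes and of genes that act on or beside them, 1 point per gene, with the number measured in brackets; red and blue mark genes higher and lower at an adjusted p under 0.05 and black bars the list medians. Rab13 is the farthest point to the right, and Tbc1d4 and Arl11 are the called genes farthest to the left.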

How the data were processed

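The authors deposited 1 table of intensity values for 6 arrays, linear and in arbitrary units, from Cy5-labelled amplified RNA per the labels' protocols. Background correction and scaling by the authors remain not given in the sources used here. Array medians lay within 0.00109 of each other on the log2 scale, and between 4.69% and 8.29% of probes were blank on an array and taken as missing. The log2 of each deposited value was used, with no pseudocount. Testing needed values on at least 2 of 3 arrays per group (21584 of 23473). Limma 3.58.1 in R 4.3.3 (lmFit, eBayes, group as only term) gave two-sided p-values, with Benjamini-Hochberg adjustment across tested probes. Of 16631 named probes, 3947 older symbols were updated through RefSeq (GRCm38.p6). A gene was read from its brightest tested probe, and each Rab gene had 1. The scripts were tested on simulated data.

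Members and lists were chosen with earlier results of these data known. The naming rule took every Rab past the threshold, the 4 nearest misses, paralogs of called Rabs, and up to 3 rises and 3 falls per list, and accounted for other Rabs by range. Marker genes, Plekhm1, Trappc9, and the per-array values of Rabs outside that rule (Rab1, Rab4b, Rab8a, Rab11a, Rab14, Rab21, Rab24 and Rab29) were chosen after the values were seen. Samples were not paired by replicate number in the main fit, because no label ties the same numbers to a shared day. Deviations of same-numbered arrays correlated at 0.351, 0.0759 and 0.262 across probes, all positive. Whether same-numbered samples share a preparation was not tested, and results with the replicate number as a block are given below.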

Additional observations from a re-analysis of the deposited data

How the results depend on the processing

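The directions of the 10 called Rab genes held under all alternatives that measured them. Rab13, Rab34, Rab33a and Rab37 also kept their calls under each (Rab37 under 16, the others under 15, being left out with bright probes only). The count of Rab rises was 4 with bright probes only and 4 at an adjusted p under 0.01, and 4 to 6 when 1 array was left out, with 5 without siControl replicate 3, siSpt6 replicate 1 or siSpt6 replicate 2 and 4 without siSpt6 replicate 3. The count of Rab falls was 0 after quantile normalization, after cyclic loess and at an adjusted p under 0.01, 4 with bright probes only and 4 with the trend and robust options, and 0 to 2 when 1 array was left out. The 2 added falls were Rab27a and Rab30. The secretory median was -0.094 with bright probes only, where the endosomal/lysosomal median was -0.0025, a gap of 0.09. With core members only, a choice that left out the called genes Rab13, Rab37, Rab33a, Rab19 and Rab34, the medians were 0.14 and 0.10, a gap of 0.04. The gap between the classes thus turned its sign under both choices; the cause was not tested. Supt6 passed the threshold after cyclic loess (log2 difference -0.42, limma adjusted p = 0.0491). Splitting the members by brightness and leaving out Rab1 were chosen after seeing the data. The split gave endosomal/lysosomal medians of 0.35 (dim) and -0.0025 (bright) and secretory medians of 0.60 (dim) and -0.094 (bright). Leaving out 1 array at a time gave an endosomal/lysosomal median of 0.02 to 0.13, a secretory median of 0.19 to 0.28 and a gap of -0.17 to -0.13. Pairs of related Rabs without overlap numbered 5 after quantile normalization and 6 after cyclic loess. The 7 Rab cycle lists held 29 calls, with between 5.56% and 33.3% of the genes of a list called, against 17% of all genes. The calls numbered 12 to 20 when 1 array was left out, with 12 without siControl replicate 1 or 2, 15 without siSpt6 replicate 1 or 2 and 18 without siSpt6 replicate 3. Calls over all probes numbered 2099 to 2522 in the same repeats, against 3525 with all 6 arrays. These repeats were also chosen after seeing the data. With the replicate number as a block, 6 Rab genes rose and 2 fell; Rab9, Rab2b and Rab3b missed the threshold (limma adjusted p = 0.0515, 0.0697 and 0.0591) and Rab27a passed it (limma adjusted p = 0.0464). Of all calls, 57.3% were higher after quantile normalization and 53.6% after cyclic loess, against 45.5% as deposited. Dim probes have no stated detection limit, which bounds how far the folds of Rab13 and Rab33a can be read.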
